A study of Homo sapiens with 15 samples.

Results

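Tissue factor, its inhibitors and the plasminogen activator system were examined in SCC13 cells, an established human cutaneous squamous cell carcinoma line, with and without forced expression of the LPS receptor TLR4. The members were 9 genes (TFPI, TFPI2, F3, THBD, PLAU, PLAUR, PLAT, SERPINE2 and SERPINB2), chosen by name out of 20503 genes with a named probe. They were represented by 11 of 50599 probes, on 29 spots of each array. Of these, 8 probes for 7 members reached the detection limit (well above background on all arrays of some group) and were tested. TFPI and SERPINB2 had no tested probe. SCC13 cells carried either the control plasmid pUNO (SCC13-pUNO) or a plasmid for TLR4 fused to GFP (SCC13-TLR4), all cells had been selected with blasticidine, and the SCC13-TLR4 cells were the sorted fraction with the brightest GFP signal. The 15 one-colour Agilent arrays comprised 4 arrays of SCC13-pUNO and 3 of SCC13-TLR4 cells without treatment, and 4 of each line after 24 h with 10 μg/ml ultrapure LPS. Replicates were seeded in parallel from the same line, so p-values measured the spread between cultures and their arrays and not between transfections. Where slide was not a factor in the fit, that spread also held the difference between the array slides.

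Tissue factor, the product of F3, starts blood clotting at the cell surface by binding factor VII. TFPI blocks the tissue factor complex, TFPI2 is a related secreted inhibitor that acts mainly on plasmin and other serine proteases in the matrix around cells, and thrombomodulin, the product of THBD, turns thrombin towards protein C activation. Urokinase (PLAU), held at the cell by its receptor (PLAUR), and tissue plasminogen activator (PLAT) turn plasminogen into plasmin, while the serpins SERPINE2 and SERPINB2 inhibit such proteases. Keratinocytes are known to make urokinase and its receptor when they migrate.

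Levels are given as log2 of the spot intensity relative to the 75th percentile of the same array. A difference of 1 is thus a doubling, levels of different probes cannot be set against each other, and a negative level lies below the 75th percentile and not below background. The 75th percentile was between 192 and 420 intensity units, and 47.1 to 56.2% of the spots of an array were well above background. The arrays came from 2 slides, with 8 arrays on slide 1 and 7 on slide 2, and every group had arrays on both. TLR4 itself was between 2.84 and 3.19 on the 7 SCC13-TLR4 arrays and between -6.40 and -3.80 on 7 of the 8 SCC13-pUNO arrays. The array labelled pUNO untreated replicate 2 had TLR4 at 3.04, against its label, so results that rest on it are given with and without it. Of the keratinocyte markers, 8 of 9 were well above background on all 15 arrays and KRT6A on 7. Of the endothelial markers, which matter because TFPI and THBD are typical of vessel lining, KDR and TIE1 were well above background on 0 arrays and TEK on 3, while PECAM1 was on 10, VWF on 14, and CDH5 and EGFL7 on 15. The leukocyte markers had 3 of 6 genes tested (PTPRC, CD68 and CD14, each on 15 arrays), the melanocyte markers 1 of 4 (PMEL), and the fibroblast markers 0 of 6. None of the tested endothelial, leukocyte or melanocyte markers passed the threshold in a comparison of lines or of LPS (limma), in the fit of all arrays or in that with slide as a factor and without the array against its label.

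The 2 Kunitz-type inhibitors of tissue factor and plasmin differed in whether they were measured at all. TFPI2 (A_23_P393620, chr7:93885396-93890753 in GRCh38.p14) was well above background on all 15 arrays, and TFPI (chr2:187464230-187554435) was not on most of them. Their promoters, from 250 bases before to 50 after the start of the gene, are shown because 1 of these similarly named genes was detected throughout and the other was not. They were taken from RefSeq, GRCh38.p14, minus strand, at chr7:93890704-93891003 and chr2:187554386-187554685. Capitals mark matches, on either strand, to a loose NF-kB motif (3 G, 5 bases of any kind and 2 C) or to TGANTCA (the AP-1 motif).
TFPI2: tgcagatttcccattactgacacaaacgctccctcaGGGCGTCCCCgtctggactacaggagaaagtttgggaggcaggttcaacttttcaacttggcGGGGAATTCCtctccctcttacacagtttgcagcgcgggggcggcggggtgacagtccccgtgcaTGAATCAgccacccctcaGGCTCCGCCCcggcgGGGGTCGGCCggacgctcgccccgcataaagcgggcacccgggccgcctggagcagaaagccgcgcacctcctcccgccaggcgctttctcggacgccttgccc
TFPI: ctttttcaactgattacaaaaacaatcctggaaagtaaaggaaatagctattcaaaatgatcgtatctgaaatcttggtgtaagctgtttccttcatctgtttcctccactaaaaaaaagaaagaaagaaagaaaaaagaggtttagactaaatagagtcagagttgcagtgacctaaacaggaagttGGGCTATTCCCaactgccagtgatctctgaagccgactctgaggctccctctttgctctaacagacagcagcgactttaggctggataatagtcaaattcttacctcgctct
The TFPI2 window held 26 CpG pairs and was 65.3% G and C, and the TFPI window held 4 CpG pairs and was 39.3% G and C, with a median of 14 CpG pairs over 35116 promoters. The TFPI2 window had 4 separate matches to the NF-kB motif, at bases -214 to -205, -152 to -143, -69 to -60 and -54 to -45 from the start, and 1 match to the AP-1 motif at bases -87 to -81. The TFPI window had 2 overlapping matches to the NF-kB motif, at bases -62 to -53 and -61 to -52. The NF-kB letters occur in 58.7% of all promoters of this length and the AP-1 letters in 7.71%. Neither window held TGACGTCA, which 1.85% of promoters hold, or TATAAA, which 11.5% hold.

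The first question was which members differ between SCC13-TLR4 and SCC13-pUNO cells. TFPI2 was lower in SCC13-TLR4 cells in both treatments, and it was the member with the largest line difference of the 7 tested. In untreated SCC13-pUNO cells its level was -1.61, -2.89, -1.67 and -1.52 in replicates 1 to 4. SCC13-TLR4 cells without treatment had -2.48, -3.15 and -2.53. After LPS the levels were -1.73, -1.84, -1.53 and -1.92 in SCC13-pUNO cells and -2.29, -3.44, -2.84 and -3.27 in SCC13-TLR4 cells. The groups with LPS did not overlap, and the untreated groups overlapped only through the array labelled pUNO untreated replicate 2, the same array that had TLR4 against its label. As intensities, TFPI2 was between 66.5 and 117 on the 7 other SCC13-pUNO arrays, at 41.1 on that array, and between 26.1 and 65.6 on the SCC13-TLR4 arrays. The group means ordered as SCC13-pUNO with LPS (-1.75 ± 0.17, SD, n = 4), untreated SCC13-pUNO (-1.92 ± 0.65, n = 4), untreated SCC13-TLR4 (-2.72 ± 0.37, n = 3) and SCC13-TLR4 with LPS (-2.96 ± 0.51, n = 4). Without the array against its label, untreated SCC13-pUNO cells averaged -1.60 ± 0.08 (n = 3), above SCC13-pUNO cells with LPS, so the order of the SCC13-pUNO groups turned. With all arrays, neighbours within a line differed by less than the larger of their SDs.

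**Figure D1:**
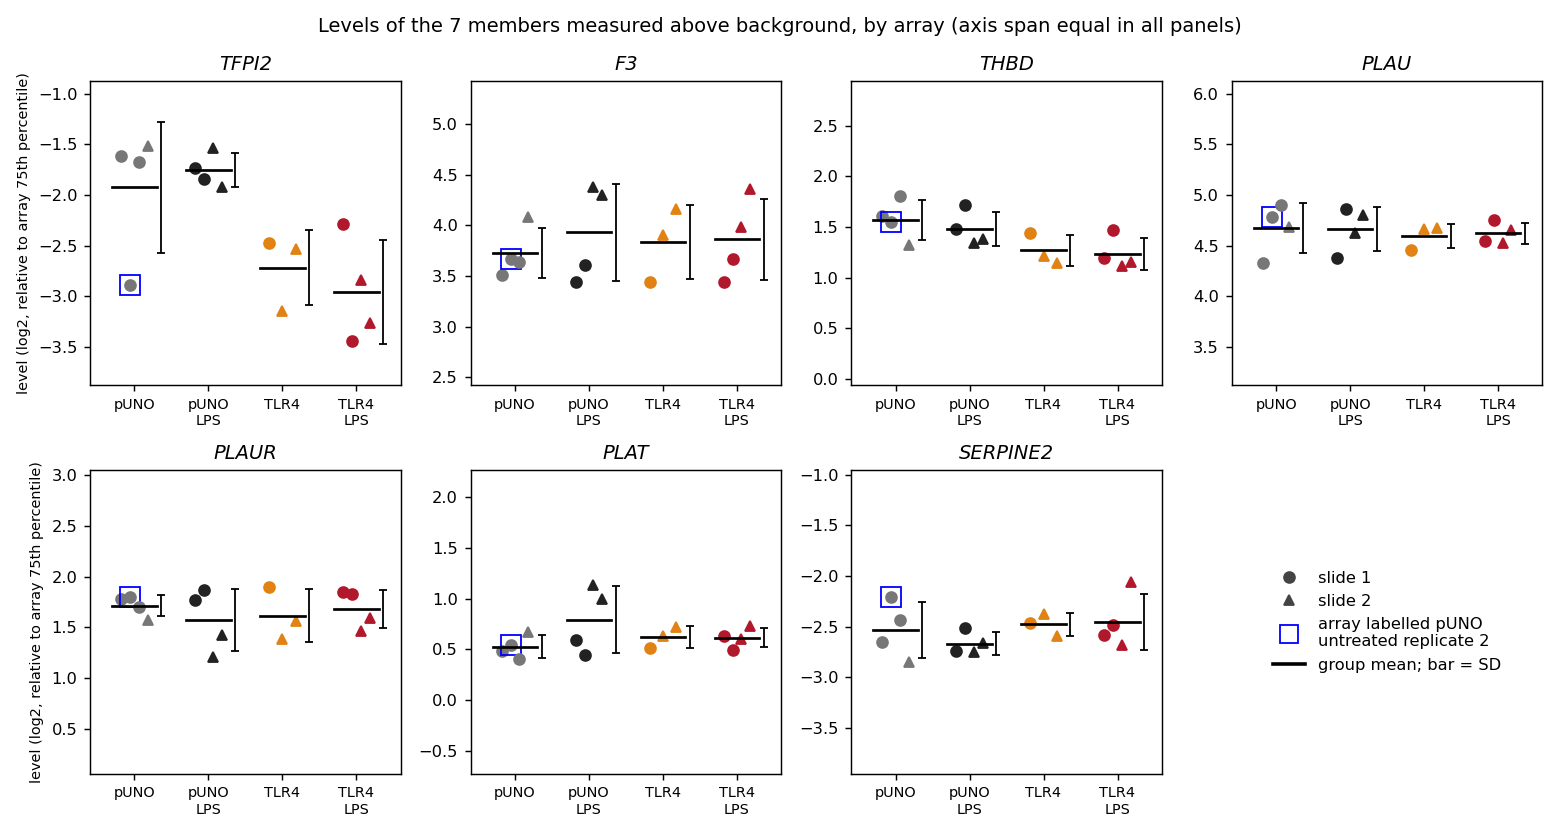
Level (log2, array 75th percentile set to 0) of the 7 members with a tested probe, 1 panel per gene with equal axis spans, by line and treatment. Points are arrays (circles slide 1, triangles slide 2), lines are group means, bars are SD, and the blue square marks the array labelled pUNO untreated replicate 2, which at -2.89 lies among the SCC13-TLR4 arrays for TFPI2.

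Across treatments TFPI2 differed by -1.0 between SCC13-TLR4 and SCC13-pUNO cells (SE 0.23, limma adjusted p = 0.472 over 22685 probes, 95% confidence interval -1.49 to -0.51), which is 50% of the SCC13-pUNO level. Untreated cells differed by -0.80 (SE 0.33, limma adjusted p = 0.999), and LPS-treated cells by -1.20 (SE 0.31, limma adjusted p = 0.907). None of these passed the threshold of 0.05. In the same fits 0.022% of the probes were called across treatments (5 probes), and 0% in untreated cells and with LPS, where 566 and 617 probes had an unadjusted p under 0.05. A fitted probe measures RNA from the whole culture, so fewer cells with the transcript and less transcript per cell cannot be told apart.

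Without the array labelled pUNO untreated replicate 2, the SCC13-pUNO levels lay between -1.92 and -1.52 on 7 arrays and the SCC13-TLR4 levels between -3.44 and -2.29 on 7 arrays, with no overlap. Such a separation, SCC13-TLR4 lower, was found for 0.123% of all probes tested (28 probes), and TFPI2 was the only member among them. The difference across treatments became -1.16 (SE 0.18, limma adjusted p = 0.0270), or 44.7% of the SCC13-pUNO level, with 0.101% of probes called. With slide as a factor as well it was -1.15 (SE 0.18, limma adjusted p = 0.0312), with 0.216% of probes called. In that fit untreated cells differed by -1.09 (SE 0.27, limma adjusted p = 0.579), and LPS-treated cells by -1.20 (SE 0.23, limma adjusted p = 0.185), with 0.0485% and 0.097% of probes called. The call for TFPI2 therefore depended on that array, and with all 15 arrays and slide as a factor the difference was -1.0 (limma adjusted p = 0.306). With all 15 arrays, no slide factor and normexp background correction, which adds an offset of 50 to every intensity, it was -0.50 (limma adjusted p = 0.638). The text of the study names TFPI among downregulated genes picked from these same arrays, and states that gene expression was checked by PCR. Its list of selected genes gives the symbol TFPI2. The study's rule also asked for an absolute log-fold change above 2. That cut was not used here, and no TFPI2 difference given here reaches it in log2. The direction of TFPI2 on these arrays is therefore not independent of that selection. Of the 8 keratinocyte markers tested, KRT14, the keratin of basal keratinocytes, moved with the lines as well. It differed by 1.28 across treatments with all arrays (limma adjusted p = 0.227) and by 1.56 with slide as a factor and without that array (limma adjusted p = 0.00019). The other 7 did not pass in either fit. In the second fit 4 of the 8 had an unadjusted p under 0.05 (limma), as did 2551 of all 22685 probes tested. Differences of the 8 ran from -0.18 to 1.56 there (median 0.16). The part of such shifts in the TFPI2 result was not tested.

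Compared on their own, the 4 SCC13-TLR4 arrays with LPS were below the 4 SCC13-pUNO arrays with LPS in 16 of 16 pairs (two-sided exact permutation test, p = 0.0286, the smallest possible with 4 against 4). With LPS, such a separation with SCC13-TLR4 lower was found for 0.727% of all probes. The share of probes separated in untreated cells was not counted, so the untreated pairs of TFPI2 cannot be set against those of all probes. In untreated cells TFPI2 was lower in 10 of 12 pairs (exact permutation test, p = 0.114), and in 9 of 9 pairs without the array against its label (exact permutation test, p = 0.10, the smallest possible with 3 against 3). Permuting the lines within treatment and slide gave an exact permutation p of 0.00694 with 15 arrays (lower in 12 of 13 pairs). Without that array it was 0.00309 (12 of 12 pairs), the smallest that 324 splits can give. Of 22380 probes with a value on every array, 0.862% were lower in all these pairs without that array. The share lower in 12 of 13 pairs was not counted. These p-values are not adjusted for the other members. Within slides, LPS-treated cells of the lines differed by -1.08 (slide 1) and -1.33 (slide 2), with 2 arrays of each line per slide. In untreated cells it was -0.42 on slide 1 (-0.83 without the array against its label) and -1.32 on slide 2, with as few as 1 array of a line on a slide. The spots within 5 rows and columns of the TFPI2 spot deviated from the slide median by a median of -0.07 to 0.09 on the 15 arrays, and their part in the result was not tested.

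**Figure D2:**
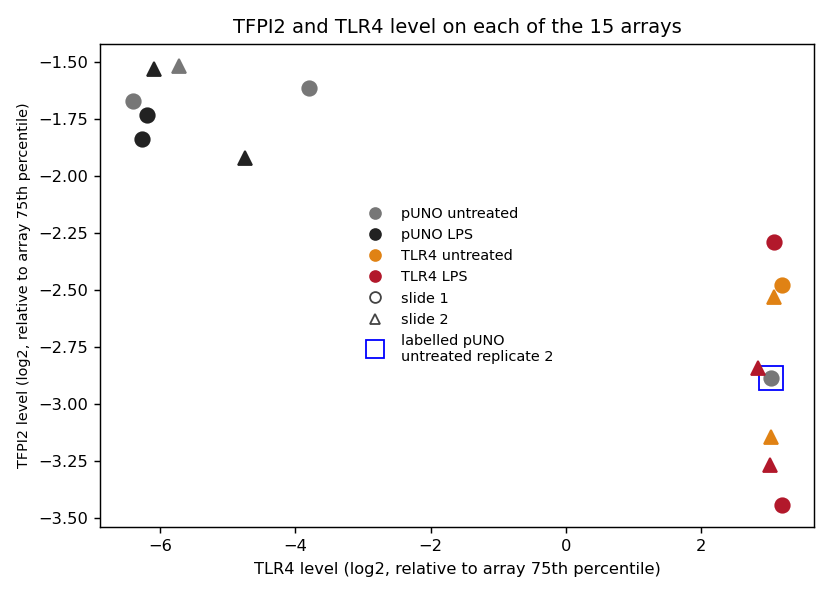
TFPI2 level against TLR4 level on each of the 15 arrays (both log2, array 75th percentile set to 0). The 7 SCC13-pUNO arrays with TLR4 between -6.40 and -3.80 had TFPI2 at -1.92 or above, and the 8 arrays with TLR4 at 2.84 or above, including the array labelled pUNO untreated replicate 2 (blue square), had TFPI2 at -2.29 or below.

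TFPI, the main inhibitor of the tissue factor complex in plasma and on endothelium, was near background. Its probe A_33_P3212615 was well above background on 2 of 15 arrays, at -3.36 on the array labelled pUNO untreated replicate 2 and at -2.61 on SCC13-TLR4 with LPS replicate 4. Its probe A_23_P330070 was well above background on 1 array, untreated SCC13-TLR4 replicate 3, at -3.06. The 3 arrays were all different, so no array had both TFPI probes well above background, and each probe is a single spot. SERPINB2 (A_24_P245379), an inhibitor of urokinase also known as plasminogen activator inhibitor type 2, was well above background on 0 of 15 arrays. No fold change is given for these genes.

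**Figure D3:**
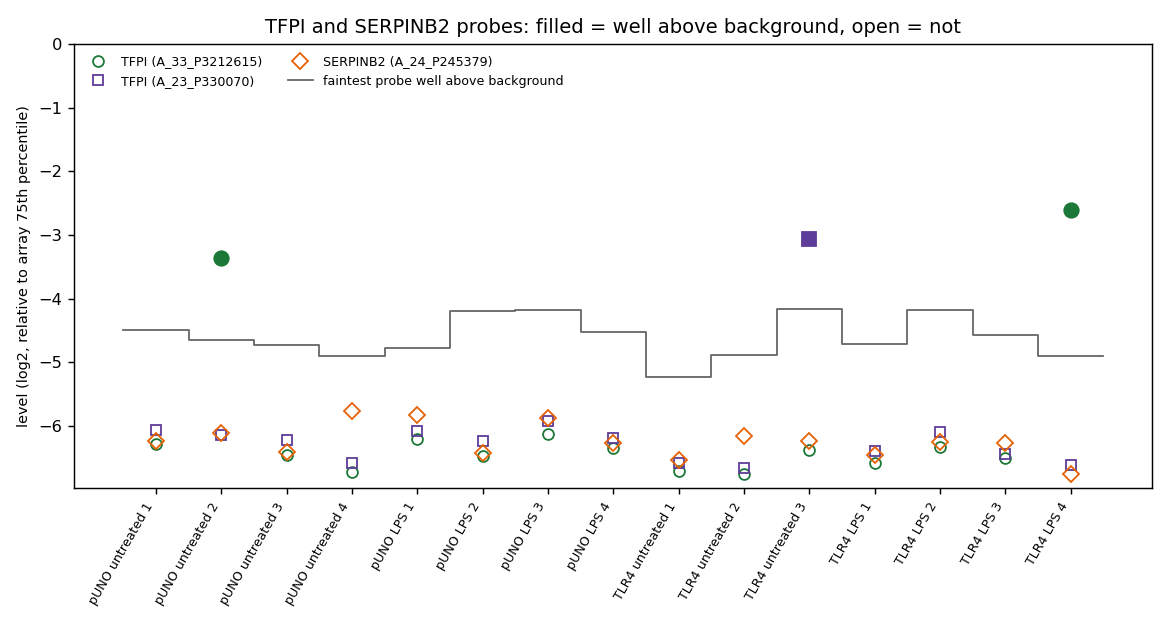
Level of the 2 TFPI probes and the SERPINB2 probe on each array (log2, array 75th percentile set to 0), filled where well above background. The grey line is the faintest probe well above background on that array, and 3 points lie above it, each on a different array.

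F3, which encodes tissue factor, did not separate by line or treatment but by slide (A_33_P3226832, chr1:94529173-94541759). Its level was 3.51, 3.67, 3.64 and 4.08 in untreated SCC13-pUNO cells and 3.44, 3.91 and 4.16 in untreated SCC13-TLR4 cells. The LPS groups had 3.43, 3.61, 4.38 and 4.30 in SCC13-pUNO cells and 3.44, 3.66, 3.98 and 4.36 in SCC13-TLR4 cells. The 8 arrays of slide 1 lay between 3.43 and 3.67 and the 7 arrays of slide 2 between 3.91 and 4.38. A separation by slide with slide 2 higher was found for 8.69% of all probes and with slide 2 lower for 12.9%, so F3 shared it with many probes. The line difference across treatments was 0.02 (SE 0.19, limma adjusted p = 0.997, 95% confidence interval -0.39 to 0.43). With slide as a factor and without the array against its label it was -0.10 (limma adjusted p = 0.659, interval -0.28 to 0.08).

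THBD, the gene of the thrombin receptor thrombomodulin (A_23_P91390, chr20:23045633-23049672), was slightly lower in SCC13-TLR4 cells, within each slide. On slide 1 it was 1.61, 1.55 and 1.81 in untreated SCC13-pUNO cells, 1.48 and 1.72 in SCC13-pUNO cells with LPS, 1.44 in untreated SCC13-TLR4 cells, and 1.19 and 1.47 in SCC13-TLR4 cells with LPS. On slide 2 it was 1.33 in untreated and 1.35 and 1.39 in LPS-treated SCC13-pUNO cells, 1.22 and 1.15 in untreated SCC13-TLR4 cells, and 1.12 and 1.15 in SCC13-TLR4 cells with LPS. Both slides thus showed SCC13-TLR4 below SCC13-pUNO, while slide 2 as a whole was lower than slide 1, so that the lines overlapped when slides were pooled. The difference across treatments was -0.28 (SE 0.10, limma adjusted p = 0.996), and with slide as a factor -0.22 (SE 0.06, limma adjusted p = 0.380, interval -0.36 to -0.08), or 85.6% of the SCC13-pUNO level. It did not pass the threshold in either fit.

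Within treatment and slide, THBD was lower in SCC13-TLR4 cells in 13 of 13 pairs (two-sided exact permutation test within treatment and slide, p = 0.00231, the smallest that 432 splits can give, not adjusted for the other members). Of 22380 probes with a value on every array, 0.465% were lower in SCC13-TLR4 cells in all these pairs (104 probes), and 0.862% without the array against its label. On slide 2 alone THBD and TFPI2 were the members with all SCC13-TLR4 arrays below all SCC13-pUNO arrays, which held for 11.2% of all probes and so was common there. The median deviation of the spots around the THBD spot ran from -0.09 (SCC13-TLR4 with LPS replicate 2) to 0.15 (SCC13-pUNO with LPS replicate 3). These are values of single arrays and not a line difference, and their part in the result was not tested.

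The plasminogen activators and the urokinase receptor had line differences within the spread between arrays. PLAU (A_23_P24104, chr10:73908832-73917494) was measured by 10 spots per array, between 4.33 and 4.90 in SCC13-pUNO cells and between 4.46 and 4.76 in SCC13-TLR4 cells, so that the lines overlapped. Its line difference was -0.06 (SE 0.10, limma adjusted p = 0.996, interval -0.28 to 0.16). The second PLAU probe (A_33_P3306146), designed on another transcript record, ranged more widely, from 0.99 to 2.10, with a line difference of -0.05 (SE 0.18, interval -0.44 to 0.35). Both probes were lowest on the same 2 arrays, untreated SCC13-pUNO replicate 1 and SCC13-pUNO with LPS replicate 1. This was not confined to SCC13-pUNO cells. On slide 1, replicate 1 of every group was below all other arrays for both probes. The first probe was at 4.33 to 4.55 there, against 4.76 to 4.90, and the second at 0.99 to 1.32, against 1.58 to 2.10.

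The 10 spots of PLAU had an SD of 0.02 to 0.06 within an array, against 0.10 to 0.25 between arrays of a group. The spread of PLAU between arrays was therefore larger than its spot error. PLAT, the gene of tissue plasminogen activator (A_23_P82868), also had 10 spots, with an SD of 0.05 to 0.12 within an array and of 0.10 to 0.33 between arrays of a group. Its line difference was -0.04 (SE 0.10, limma adjusted p = 0.996, interval -0.27 to 0.18).

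**Figure D4:**
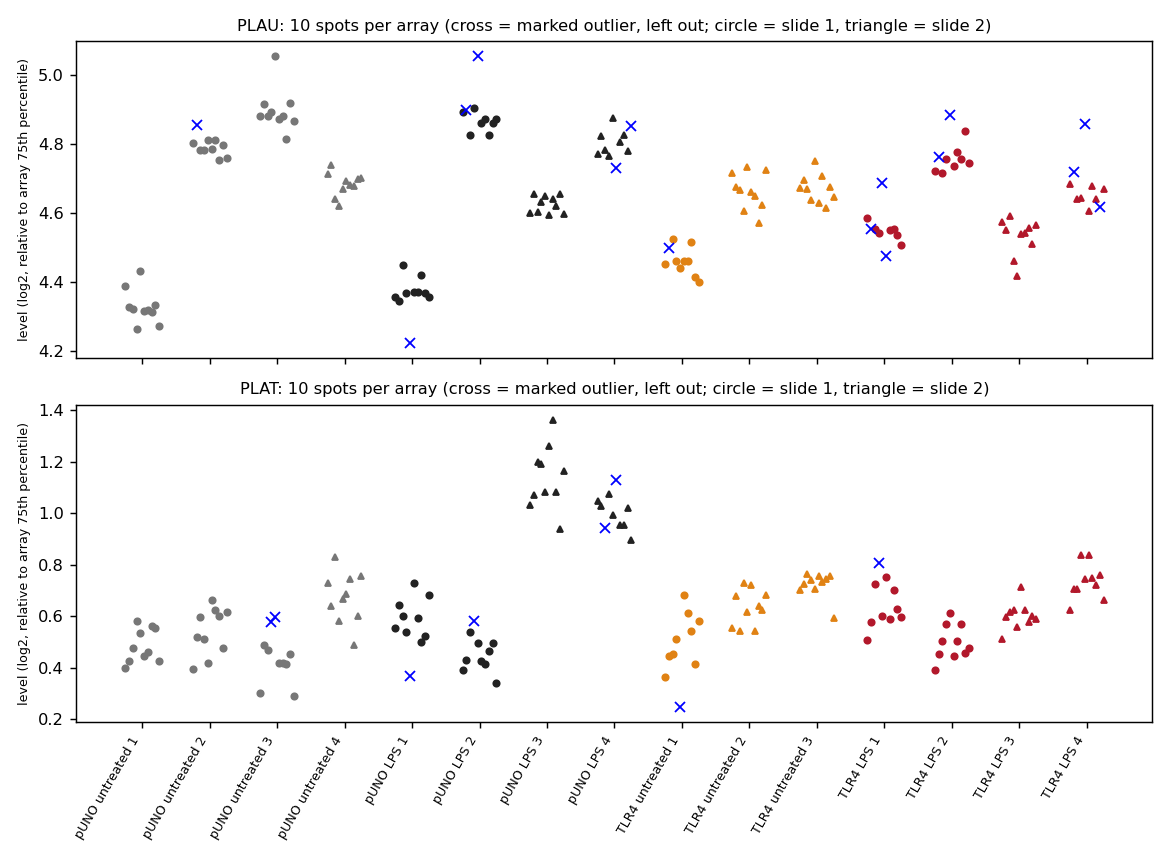
Every spot of the 10-spot probes of PLAU and PLAT on each array (log2, array 75th percentile set to 0), by group, with circles for slide 1, triangles for slide 2, and crosses for spots marked as outliers and left out. For PLAU the spots of an array lie close together compared with the distance between arrays. For PLAT the spot SD within an array (0.05 to 0.12) overlaps the SD between arrays of a group (0.10 to 0.33). PLAT was highest on SCC13-pUNO with LPS replicates 3 and 4 at 1.14 and 1.00.

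PLAUR (A_23_P16469, chr19:43646095-43670169), the anchor of urokinase at the cell surface, separated by slide in the direction opposite to F3. It was between 1.70 and 1.90 on slide 1 and between 1.21 and 1.59 on slide 2. The line difference was 0.01 (SE 0.12, limma adjusted p = 0.998, interval -0.25 to 0.26). SERPINE2 (A_23_P50919, chr2:223975045-224039286), also called protease nexin 1, lay between -2.85 and -2.21 in SCC13-pUNO cells and between -2.68 and -2.06 in SCC13-TLR4 cells. Its line difference was 0.14 (SE 0.11, limma adjusted p = 0.996, interval -0.11 to 0.38), and 0.20 (SE 0.11, limma adjusted p = 0.501) with slide as a factor and without the array against its label. The median line difference over the 7 members was -0.04, beside -0.01 over all 22685 probes tested.

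**Figure D5:**
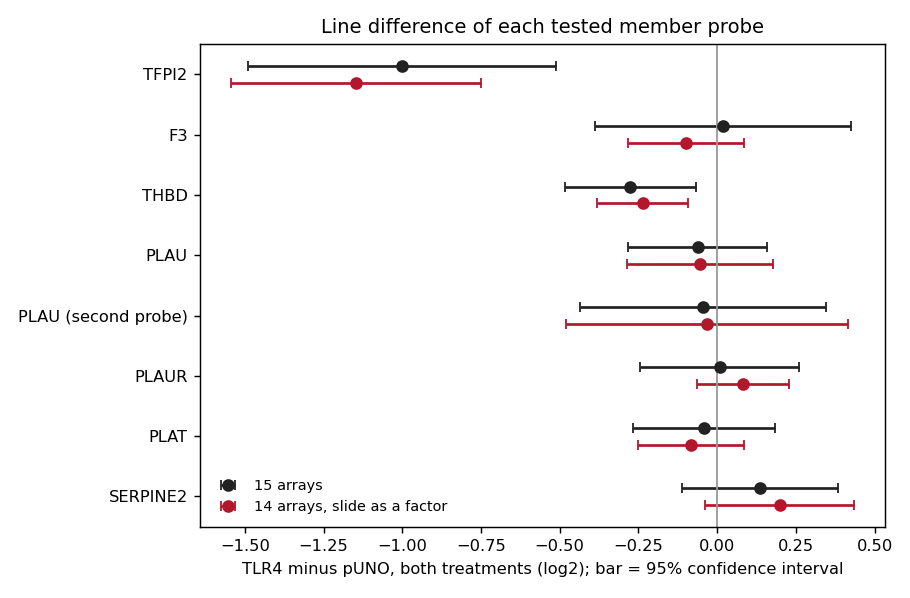
Difference between SCC13-TLR4 and SCC13-pUNO cells across treatments (log2) for the 8 tested member probes, with 95% confidence intervals from limma, for all 15 arrays (black) and for 14 arrays with slide as a factor and without the array labelled pUNO untreated replicate 2 (red). The intervals of TFPI2 and THBD lie below 0 in both, and all others include 0.

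The second question was whether 24 h of LPS changed the members. With all 15 arrays 0 of 7 members passed the threshold in SCC13-pUNO cells, in SCC13-TLR4 cells or in the difference between the responses (limma), and 0 had an unadjusted p under 0.05. Over all probes 0% were called in each of the 3 comparisons, with 562, 301 and 299 probes at an unadjusted p under 0.05. The differences of the members lay between -0.14 and 0.27 in SCC13-pUNO cells (median -0.01) and between -0.24 and 0.07 in SCC13-TLR4 cells (median 0.02), beside medians of -0.01 and -0.01 over all probes. TFPI2 differed by 0.17 with LPS in SCC13-pUNO cells (interval -0.50 to 0.83) and by -0.24 in SCC13-TLR4 cells (interval -0.96 to 0.48). Without the array against its label the first was -0.15 (interval -0.69 to 0.38).

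PLAT had the largest LPS difference in SCC13-pUNO cells, 0.27 (SE 0.14, limma adjusted p = 1.00). It was 0.49, 0.54, 0.41 and 0.67 before treatment, and the LPS group had 0.60, 0.44, 1.14 and 1.00, with overlap between the groups. The 2 high values were both on slide 2, where the untreated SCC13-pUNO array was at 0.67. Within slides it came to 0.04 (slide 1) and 0.40 (slide 2), and without SCC13-pUNO with LPS replicate 3 it was 0.15. In SCC13-TLR4 cells PLAT was 0.51, 0.63 and 0.72 untreated and 0.63, 0.50, 0.60 and 0.74 with LPS.

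Of 40 coagulation, anticoagulant, plasminogen and inhibitor genes, 39 had a probe, 15 were tested, 13 were well above background on all 15 arrays and 14 on none. Of the 15 tested, 0 passed the threshold in either direction in the line comparisons or the LPS comparisons, also without the array against its label and with slide as a factor. PROS1, the gene of the protein C cofactor protein S, was the only one with an unadjusted p under 0.05 in any of these comparisons, and it is named here after its values were seen. PROS1 has 4 probes, and values of the others are not given here. The brightest tested probe (A_21_P0012451) was well above background on 7 of 15 arrays, and was tested because these included all arrays of some group. The mean level of this probe was -4.22 in untreated and -3.84 in LPS-treated SCC13-pUNO cells, and -3.78 in untreated and -4.61 in LPS-treated SCC13-TLR4 cells. The faintest probe well above background lay between -5.23 and -4.16 on the arrays, so PROS1 was near the detection limit. Its group differences are therefore not independent of the detection filter. With LPS the lines differed by -0.77 (limma adjusted p = 1.00), and by the same amount with slide as a factor and without the array against its label (limma adjusted p = 0.224). LPS-treated and untreated SCC13-TLR4 cells differed by -0.83 (limma adjusted p = 1.00), and by -0.70 in that other fit (limma adjusted p = 1.00). Across treatments the lines differed by -0.17 for PROS1. PROCR, the endothelial protein C receptor, differed by -0.02 and F2RL1, the protease-activated receptor PAR2 of keratinocytes, by 0.03. Among the receptors that hold plasminogen at the cell surface, S100A10, ANXA2 and ENO1 differed by -0.10, -0.02 and -0.09. The Kunitz inhibitors SPINT1 and SPINT2, of the same inhibitor family as TFPI2, differed by 0.01 and -0.01.

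The genes most like TFPI2 across the 15 arrays were found by Pearson's r with its probe, after removing the mean of each slide. The highest were NMU (r = 0.96), MARVELD1 (0.95), RASIP1 (0.94), TCEAL6 (0.93) and RAMP1 (0.92), and the lowest were ATF3 (-0.91), SARS1 (-0.90), KRT14 (-0.90), FHIT (-0.89) and TMEM171 (-0.89). These values are a description over 15 arrays that share lines and slides. ATF3, a stress-induced transcription factor, averaged -1.88 on the 7 SCC13-pUNO arrays whose TLR4 level matched the label, -0.46 on the SCC13-TLR4 arrays and 0.01 on the array labelled pUNO untreated replicate 2. RAMP1, a partner of the receptor for calcitonin gene-related peptide, averaged -0.33 and -1.45, with -1.40 on that array. Among the members, the r with TFPI2 was 0.53 for THBD and -0.70 for SERPINE2.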

How the data were processed

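RNA of 15 SCC13 cultures was read on 1-colour Agilent SurePrint G3 arrays. The authors deposited the spot intensity as processed by Agilent Feature Extraction 10.7.3.1 (background subtracted, not normalized between arrays), and the deposited series table held the same intensity at all 62976 spots. Intensities were converted to log2 after division by the 75th percentile of their array, outlier-marked spots were left out, and spots of a probe were averaged. A probe was tested when all arrays of some group held it well above background (22685 of 50599 probes). The array design was on hg19, and probes were named through accessions with a RefSeq table of GRCh38.p14 (28174 probes with a symbol).

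Groups were compared with limma 3.58.1 in R 4.3.3 over all 15 arrays, with Benjamini-Hochberg adjustment over all probes and a threshold of 0.05, and single probes with exact permutation tests. All probes of the members were named, with the brightest tested probe as the reference of a gene. For the 5 genes most and least like TFPI2, the rule was Pearson's r over probes above background on 15 arrays. Lists of other pathway genes and cell markers were counted. Members, lists and the array left out were chosen with earlier results of these data known. Alternatives were normexp on the median spot and background signal (offset 50), quantile normalization, the series table, other filters, outlier-marked spots kept, a replicate block, slide, array weights, moderation with trend and robust fit, only the groups compared, a mean over probes, each slide alone and each array left out. The fit was tested on simulated data. Python 3.11.15, numpy 2.4.6, pandas 2.3.3 and matplotlib 3.10.9 were used. Precision is limited by the number of arrays.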

Additional observations from a re-analysis of the deposited data

Results flagged for a closer look

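In 33 groups of 4 values (11 probes in 3 groups of arrays), 3 values stood apart from the others of their group, where chance gives about 1.65. The array labelled pUNO untreated replicate 2 had TFPI2 at -2.89, against -1.67 to -1.52 on the others of its group. The same array held a TFPI probe (A_33_P3212615) at -3.36, against -6.73 to -6.29 on the others. That TFPI probe was at -2.61 on SCC13-TLR4 with LPS replicate 4, against -6.57 to -6.33 on the others.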

How the results depend on the processing

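TFPI2 and THBD were lower in SCC13-TLR4 cells across treatments under every alternative run, TFPI2 by -1.32 to -0.50 and THBD by -0.35 to -0.19. Not all alternatives are separate checks. The series table held the same intensities as the main fit, and the fit without the array against its label is also a fit leaving out a single array. TFPI2 passed the threshold only in the 2 fits without the array labelled pUNO untreated replicate 2 (adjusted p = 0.0270 and 0.0312), and leaving out each array in turn gave -1.16 to -0.89. No other member passed it under any alternative run (the mean over probes was run for PLAU, the member with a second tested probe, and for the counts). TFPI2 rests on 1 spot per array, and the smallest difference (-0.50) came after normexp. That correction added an offset of 50, beside processed TFPI2 intensities of 26.1 to 117, and the part of the offset was not tested.

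The number of probes past the threshold across treatments, 5 with all arrays, was 0 after quantile normalization, with the filter on all 15 arrays, with outlier-marked spots kept, with the replicate block, with array weights and with trend and robust moderation. It was 2 without a filter, 22 with slide as a factor, 23 without the array labelled pUNO untreated replicate 2 and 49 with both. In untreated cells the number of probes, 0 with all arrays, became 7 without that array, 11 with slide as a factor too and 8 with array weights. With LPS it became 10, 22 and, with only the groups compared, 5. Leaving out single arrays gave 0 to 7 in untreated cells, 0 to 10 with LPS, 0 to 23 across treatments (2 without TLR4 untreated replicate 3), 0 to 1 for LPS in SCC13-pUNO cells (without pUNO LPS replicate 2), and 0 to 3 for LPS in SCC13-TLR4 cells and 0 to 2 for the difference of the responses, both without TLR4 untreated replicate 3. Of 21 same-number pairs, the 15 on the same slide had deviations correlated over 0.1 and the 6 on different slides below 0 (-0.537 to 0.616). These pairs cannot tell whether replicate numbers pair the arrays, since pairs of different numbers on the same slide were not compared. The replicate block gave TFPI2 a difference of -1.0 across treatments (adjusted p = 0.149).

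Differences near 0 changed sign. TFPI2 for LPS in SCC13-pUNO cells was -0.15 without the array against its label, -0.14 with slide as a factor too and -0.21 within slide 2 (-0.15 to 0.30 leaving out single arrays). F3 by line was -0.16, -0.13, -0.17 and -0.048 in untreated cells (slide as a factor, slide and that array left out, slide 1, slide 2) and -0.11, -0.099, -0.070 and -0.11 across treatments in the same order. With LPS F3 was 0.00528 after normexp and 0.030 within slide 1, and PLAU was 0.00549 and 0.030. PLAUR by line was 0.053, 0.051 and 0.14 in untreated cells (slide as a factor, slide and that array left out, slide 1), and -0.013 with the replicate block and -0.075 with array weights across treatments. PLAT by line was -0.015 in untreated cells (slide as a factor), 0.045 with LPS (slide 1), and 0.024 (array weights) and 0.039 (slide 1) across treatments. PLAT for LPS in SCC13-TLR4 cells was 0.0072 with outlier-marked spots kept, 0.038 with slide as a factor, 0.040 without that array too and 0.052 within slide 1. SERPINE2 by line in untreated cells was -0.022 after normexp, -0.028 after quantile normalization, -0.025 with array weights and -0.029 within slide 1.

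Leaving out single arrays, F3 by line ranged from -0.054 to 0.31 (untreated), -0.24 to 0.079 (LPS) and -0.064 to 0.12 (across treatments). PLAUR ranged from -0.24 to 0.018, -0.00569 to 0.21 and -0.063 to 0.066 in the same comparisons. PLAU with LPS ranged from -0.14 to 0.019, PLAT across treatments from -0.099 to 0.017, PLAT for LPS in SCC13-TLR4 cells from -0.061 to 0.044, and SERPINE2 in untreated cells from -0.046 to 0.17.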
